A study of Mus musculus with 7 samples.

Results

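The AP-1 and EGR immediate early factors described here are 10 transcription factor genes, chosen by symbol from the count table: Fos, Fosb, Fosl1, Fosl2, Jun, Junb, Jund, Atf3, Egr1 and Egr2. All 10 were found among its 55228 rows, and all 10 were among the 15798 genes tested. AP-1 is a dimer of basic leucine zipper (bZIP) proteins. FOS family proteins pair with JUN family proteins, JUN proteins also pair with each other, and ATF3 can pair with JUN proteins. EGR1 and EGR2 are zinc finger factors. Many of these genes, but not all, are switched on within minutes of a growth factor, hormone or stress signal, without new protein synthesis. Several of the 10 are induced in granulosa cells by the ovulatory gonadotropin surge. In rat ovaries, JUND and FOSL2 are the AP-1 proteins described as persisting when granulosa cells become luteal cells.

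The libraries came from primary granulosa cells of C57BL/6J mice, the hormone-producing cells that line the ovarian follicle and nurture its oocyte. The WT group had 4 libraries and the Fhl2 KO group had 3, numbered below as in the labels (WT 1 to WT 4 and KO 1 to KO 3), and no library received a treatment. Fhl2 encodes a LIM-domain cofactor known to bind FOS and JUN proteins. The labels give no age, hormone priming or pooling of animals, and do not say how the allele was made or in which cells it is inactive. Nor do they state whether each library had its own animal or culture. The p-values thus measure only how these samples spread, and that spread may be technical.

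Total counts ran from 38855596 to 50514556 per library, so that the floor of 3 counts was 0.0594 to 0.0772 CPM, the count scaled to the library total. Fhl2 itself was at 101, 114, 106 and 109.9 CPM in WT 1 to WT 4 and at 47.9, 66.8 and 60.4 CPM in KO 1 to KO 3. It was lower in every Fhl2 KO library but still counted in all of them (log2 fold change -0.88, SE 0.107, adjusted p = 3.29e-05 in edgeR's quasi-likelihood test). Which exons the remaining Fhl2 reads cover cannot be seen in counts of whole genes. Of the related genes, Fhl1 (-0.17, adjusted p = 0.155), Fhl3 (-0.07, adjusted p = 0.695) and Fhl4 (0.40, adjusted p = 0.595) did not pass the threshold of 0.05 in the same edgeR test, and Fhl5 had 0 counts in all 7 libraries. The libraries differed in how their values followed transcript length: the slope of log2 CPM on length was 0.064 to 0.0897 per doubling in WT, 8.06e-05 in KO 1, -0.184 in KO 2 and -0.141 in KO 3. Changes are therefore also given with length and GC content corrected for in each library. KO 1 lay between WT and the other Fhl2 KO libraries in this slope. Values for KO 1 alone are given for the AP-1 and EGR factors whose call was lost with it, but not for every other gene named.

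Across the table, 29.0% of the genes tested differed between Fhl2 KO and WT, with 13.5% higher and 15.6% lower. Of the 10 factors, 5 passed the same edgeR test: Fosl1, Junb, Jund and Atf3 rose and Fos fell. Fosb, Fosl2, Jun, Egr1 and Egr2 did not pass. The median log2 fold change of the 10 was 0.12, beside 0.00 over all genes tested. In 5 of the 10 the ranges of the groups did not overlap, as in 34.2% of all genes tested: Fhl2 KO lay above WT for 4 (16.4% of genes) and below it for 1 (17.7%). After the length and GC correction 6 of the 10 passed, with Fosl2 added among those that rose, beside 22.5% of genes (5 higher, beside 11.7%, and 1 lower, beside 10.8%). DESeq2 called the same number, 5, beside 31.8% of genes. Without KO 3 the test called 4, beside 10.2% of genes, and with KO 1 alone it called 1, Fosl1, beside 4.60%. In these bulk samples, fewer cells of a type and less RNA per cell cannot be told apart.

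**Figure D1:**
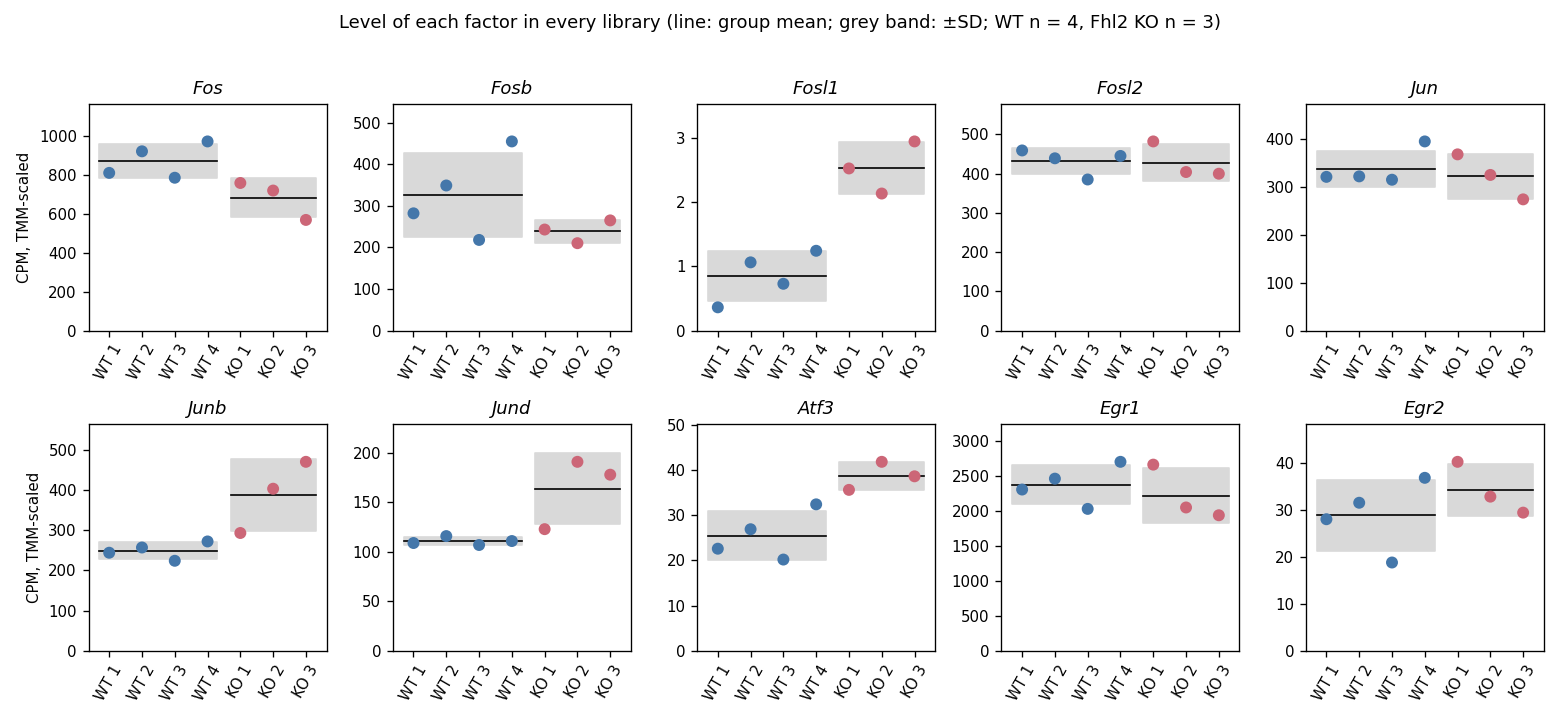
Level of each of the 10 factors in every library, in CPM scaled by TMM (linear axis from 0 in each panel); points are libraries, lines are group means and grey bands are ± SD over 4 WT and 3 Fhl2 KO libraries. The Fhl2 KO points lie above all WT points for Fosl1, Junb, Jund and Atf3, and below all WT points for Fos.

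**Figure D2:**
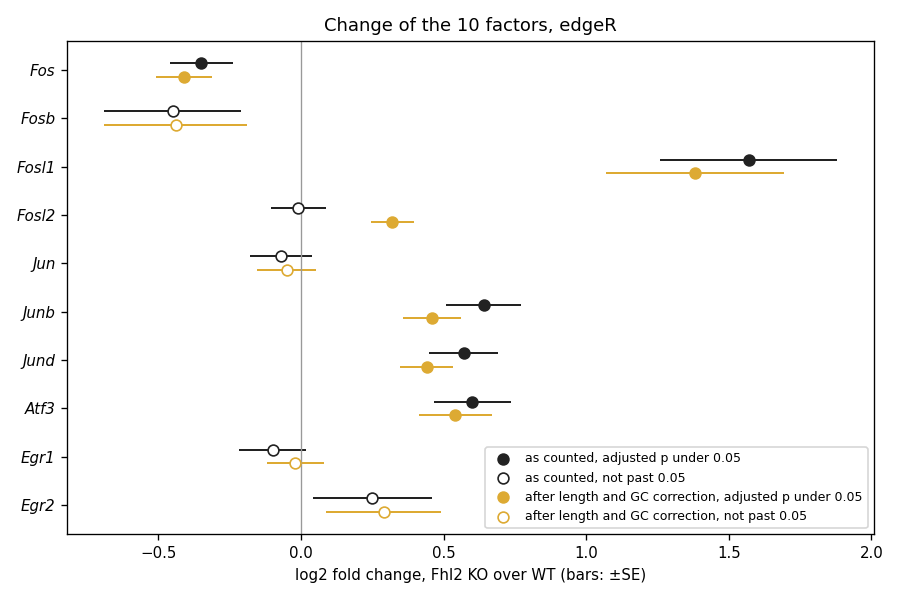
Log2 fold change of each factor, Fhl2 KO over WT, with SE as bars, in edgeR as tested and after the length and GC correction; filled points passed an adjusted p of 0.05. Fosl1 stands at 1.57, Junb, Atf3 and Jund lie between 0.57 and 0.64, and Fosl2 moves from -0.01 to 0.32 with the correction.

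Between genes, levels were compared as CPM per kilobase of mean transcript length. Egr1 stood highest in WT, at 630.4 ± 74.9 CPM per kb (SD, n = 4), and by CPM only 22 genes of the whole table were above it. Fos followed at 415 ± 42.2 CPM per kb. Junb (138 ± 11.3), Jun (106 ± 11.9) and Fosb (102 ± 31.5 CPM per kb) came next. The WT range of Fosb, 68 to 142 CPM per kb, overlapped those of Junb (124 to 150.2), Jun (98.9 to 124), Jund (64 to 69.5) and Fosl2 (58.8 to 70.2), so its place among them is not settled. Jund (66.3 ± 2.4) and Fosl2 (66.1 ± 4.99 CPM per kb) did not differ beyond their spread. The same held lower down for Atf3 (13.1 ± 2.75) and Egr2 (10.2 ± 2.67 CPM per kb). Fosl1 was the lowest by far, at 0.453 ± 0.207 CPM per kb. In Fhl2 KO the order was the same except that Jund, at 98.4 ± 21.6 CPM per kb (n = 3), stood above Fosb, at 74.6 ± 8.56 CPM per kb. Their Fhl2 KO ranges overlapped.

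Promoter windows, from 250 bases before to 50 bases after the RefSeq start (GRCm38.p6), were at hand for 8 of the 10 genes, 12 windows in all: 5 for Egr2, 3 of which nearly coincide, and 1 for each of the others. No window was at hand for Egr1 or Fosl1. Those of Fos, which fell, and of Junb and Atf3, which rose, are shown because they hold TGACG, the core of the cAMP response element bound by ATF and CREB proteins. Capitals mark TGACG or its reverse complement CGTCA, and the TATA motif TATAAA. Each sequence is on the gene's own strand, 5′ to 3′. The Fos window is chr12:85473640-85473939 (plus strand), the Junb window chr8:84978699-84978998 (minus strand) and the Atf3 window chr1:191183284-191183583 (minus strand).
Fos: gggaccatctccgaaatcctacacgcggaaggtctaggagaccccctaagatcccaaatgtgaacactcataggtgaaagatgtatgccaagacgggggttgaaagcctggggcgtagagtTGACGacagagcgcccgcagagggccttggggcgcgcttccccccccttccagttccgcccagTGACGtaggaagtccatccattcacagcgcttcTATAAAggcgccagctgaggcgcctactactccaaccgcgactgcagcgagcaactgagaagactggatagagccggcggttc
Junb: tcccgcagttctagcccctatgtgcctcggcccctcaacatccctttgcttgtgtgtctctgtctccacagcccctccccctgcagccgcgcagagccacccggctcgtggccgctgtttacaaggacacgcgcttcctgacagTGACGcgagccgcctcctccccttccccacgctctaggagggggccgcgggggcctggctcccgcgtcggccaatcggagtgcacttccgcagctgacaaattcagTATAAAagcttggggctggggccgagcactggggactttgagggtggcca
Atf3: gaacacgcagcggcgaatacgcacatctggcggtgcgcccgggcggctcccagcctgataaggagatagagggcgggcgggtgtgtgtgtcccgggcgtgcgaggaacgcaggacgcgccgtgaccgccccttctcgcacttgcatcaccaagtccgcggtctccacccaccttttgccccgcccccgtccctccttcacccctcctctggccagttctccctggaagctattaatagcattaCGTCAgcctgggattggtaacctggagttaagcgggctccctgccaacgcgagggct

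In the Fos window TGACG began 129 and 66 bases before the start, and TATAAA 33 bases before it. In the Junb window TGACG began 106 bases before the RefSeq start; its TATAAA lay 30 bases before the start given by GENCODE. In the Atf3 window CGTCA began 7 bases before the RefSeq start, which is not the outermost start of the gene in GENCODE. Searched on both strands, TGACG was in 7 of the 12 windows (1 each of Fos, Fosb, Junb and Atf3, and 3 of the 5 of Egr2) and in 20.8% of the 32851 windows of the table. TATAAA was in 2 of the 12 and in 13.6% of all windows. The AP-1 element TGACTCA and the full cAMP response element TGACGTCA, which itself contains TGACG, were in 0 of the 12 windows and in 5.2% and 1.79% of all windows. The EGR1 element GCGGGGGCG was in 2 of the 12 (Fosb and Fosl2), beside 2.91% of all, and its variant GCGTGGGCG was in 0 of the 12, beside 0.612%. The CArG box bound by SRF was in 4 of the 5 windows of Egr2 and in no window of the other genes, beside 1.63% of all windows. The windows of Egr2 overlap in part, so they are not separate sequences. These matches describe letters in the windows. Fos, which fell, and Junb, which rose, both hold TGACG and TATAAA.

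Among the FOS proteins, which need a partner to bind DNA as AP-1, Fos fell and Fosl1 rose in Fhl2 KO. Fos, the archetypal immediate early gene (chromosome 12, 85473890 to 85477273, plus strand, mm10), was at 812, 923, 787 and 974 CPM in WT 1 to WT 4. It was at 760, 721 and 569.7 CPM in KO 1 to KO 3. Every Fhl2 KO library was below every WT library, with KO 1 the closest to WT 3. The Fhl2 KO mean was 78.2% of WT (684 ± 100, n = 3, against 874 ± 88.9 CPM, n = 4), a log2 fold change of -0.35 (SE 0.11, edgeR adjusted p = 0.0241). With the length and GC correction it was -0.41 (SE 0.0986, edgeR adjusted p = 0.00915). The Fos call depended on single libraries: it was lost without WT 2 (-0.31, edgeR adjusted p = 0.0689), without WT 4 (-0.30, adjusted p = 0.0927) and without KO 3 (-0.24, adjusted p = 0.161), and with KO 1 alone it was -0.20 (adjusted p = 0.319).

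Fosl1, which encodes the FOS-related antigen FRA1 (chromosome 19, 5447547 to 5455946, plus strand), was counted little. It had 14, 53, 34 and 54 reads in WT 1 to WT 4 and 99, 100 and 134 reads in KO 1 to KO 3. All Fhl2 KO libraries were above all WT libraries, and WT 1 was the lowest. Scaled, this was 0.845 ± 0.385 CPM in WT and 2.53 ± 0.406 CPM in Fhl2 KO, a 2.97-fold rise (log2 1.57, SE 0.311, edgeR adjusted p = 0.0022), and 1.38 on the log2 scale after the correction (adjusted p = 0.00568). The Fosl1 call held with KO 1 alone (log2 1.56, edgeR adjusted p = 0.0442). Of its exon bases, 57.2% overlap exons of Ccdc85b on the opposite strand, which had 855 to 1514 reads per library and a log2 fold change of 0.35 (SE 0.13, edgeR adjusted p = 0.0547). The strand setting of the counting is not given in the sources used here, so reads of the genes cannot be told apart where they overlap.

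Fosb encodes a FOS paralogue that is likewise an immediate early gene product (chromosome 7, 19302696 to 19310051, minus strand). It was at 282, 349, 218 and 455 CPM in WT and at 243, 210.2 and 265 CPM in Fhl2 KO. The groups overlapped, with KO 2 the lowest of all 7 libraries and WT 4 the highest. Its log2 fold change was -0.45 (SE 0.241, edgeR adjusted p = 0.213), and it passed without WT 3 (-0.60, edgeR adjusted p = 0.0259). Fosl2, which encodes FRA2 (chromosome 5, 32135801 to 32157842, plus strand), was at 459, 439, 385 and 445 CPM in WT and at 482, 404 and 399.7 CPM in Fhl2 KO. The groups overlapped, and the log2 fold change was -0.01 (SE 0.0969, edgeR adjusted p = 0.941). Fosl2 has the longest transcript of the 10 by mean length, 6537 nucleotides, and its log2 fold change moved more with the correction than that of any other factor. Corrected values were 409, 394, 357 and 415 CPM in WT and 472, 543 and 456 CPM in Fhl2 KO, so that the groups no longer overlapped (log2 fold change 0.32, SE 0.0755, edgeR adjusted p = 0.00764).

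Of the JUN proteins, which can bind DNA as AP-1 with a FOS partner or with each other, Junb and Jund rose and Jun did not pass the test. All have a single exon in the protein-coding transcripts used for their lengths. Junb, often described as a brake on JUN (chromosome 8, 84974484 to 84978718, minus strand), was at 244, 257, 224 and 272 CPM in WT 1 to WT 4. It was at 293, 403 and 469.8 CPM in KO 1 to KO 3. No Fhl2 KO library fell within the WT range, but KO 1 lay much nearer to it than KO 2 and KO 3. The means were 249 ± 20.4 and 388 ± 89.5 CPM, a 1.56-fold rise (log2 0.64, SE 0.131, edgeR adjusted p = 0.00373). Corrected for length and GC, the log2 fold change was 0.46 (SE 0.101, adjusted p = 0.00589), with KO 1 (294) just under WT 4 (295 CPM). With KO 1 alone it was 0.23 (edgeR adjusted p = 0.195). Over all its annotated transcripts Junb has 2301 exon bases. At its end it shares 173 of them, 7.52%, with Prdx2 on the other strand. Prdx2 is an abundant peroxiredoxin gene with 26641 to 51374 reads per library. Prdx2 also rose (log2 0.53, SE 0.108, edgeR adjusted p = 0.00248), and its part in the Junb values was not tested.

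Jund, the JUN paralogue expressed in resting cells of many kinds (chromosome 8, 70698949 to 70700616, plus strand), was at 109, 116, 107 and 111 CPM in WT and at 123, 191 and 178 CPM in Fhl2 KO. The WT values lay close together, and KO 1 was just above them. The means were 111 ± 4.01 and 164 ± 36 CPM, a 1.48-fold rise (log2 0.57, SE 0.12, edgeR adjusted p = 0.00369; corrected 0.44, adjusted p = 0.00412). With KO 1 alone it was 0.15 (edgeR adjusted p = 0.395). Of the exon bases of Jund, 52.6% overlap exons of Gm11175, an antisense gene with 0 counts in every library. How reads there were counted is not given, and the part of this overlap in the Jund levels was not tested. Jun, the founding member of the group (chromosome 4, 95049034 to 95052222, minus strand), was at 321, 322, 315 and 395 CPM in WT and at 368, 325 and 274 CPM in Fhl2 KO. The groups overlapped, with KO 3 the lowest library and WT 4 the highest. Its log2 fold change was -0.07 (SE 0.109, edgeR adjusted p = 0.675), and -0.05 corrected (adjusted p = 0.781).

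By mean transcript length, the 4 factors that rose are the 4 shortest of the 10: Jund at 1668, Junb at 1809, Fosl1 at 1864 and Atf3 at 1945 nucleotides. Fos, which fell, follows at 2108 nucleotides. Jund and Junb also have the highest GC contents, 67.1% and 62.6%. All 4 still passed, with smaller log2 fold changes, after the length and GC correction.

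Atf3, which encodes a stress-induced bZIP factor that pairs with JUN proteins and often represses (chromosome 1, 191170296 to 191218039, minus strand), rose in Fhl2 KO. It was at 22.6, 26.9, 20.2 and 32.4 CPM in WT 1 to WT 4 and at 35.6, 41.8 and 38.6 CPM in KO 1 to KO 3. The Fhl2 KO libraries lay close together above WT 4, the highest of a wide WT range. The means were 25.5 ± 5.36 and 38.7 ± 3.14 CPM, a 1.52-fold rise (log2 0.60, SE 0.135, edgeR adjusted p = 0.00547; corrected 0.54, adjusted p = 0.01). With KO 1 alone it was 0.48 (edgeR adjusted p = 0.319).

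The EGR genes did not pass the test. Egr1, which encodes a zinc finger factor induced by luteinizing hormone in granulosa cells (chromosome 18, 34859823 to 34864984, plus strand), was at 2302, 2457, 2026 and 2697 CPM in WT. In Fhl2 KO it was at 2657, 2046 and 1935 CPM. KO 1 was near the highest WT library and KO 3 below the lowest, so that the groups overlapped (log2 fold change -0.10, SE 0.118, edgeR adjusted p = 0.568; corrected -0.02, adjusted p = 0.933). Egr2, its paralogue best known from Schwann cells and lymphocytes (chromosome 10, 67535475 to 67542188, plus strand), was at 28, 31.5, 18.8 and 36.8 CPM in WT and at 40.2, 32.8 and 29.4 CPM in Fhl2 KO. The groups overlapped, with WT 3 the lowest library and KO 1 the highest (log2 fold change 0.25, SE 0.209, edgeR adjusted p = 0.418; corrected 0.29, adjusted p = 0.35).

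The make-up of the JUN group differed between the libraries. The summed level of Jun, Junb and Jund was 301, 313, 286 and 341 CPM per kb in WT 1 to WT 4 and 351, 439 and 452 CPM per kb in KO 1 to KO 3. Junb made up 44.9%, 45.5%, 43.1% and 44.1% of that sum in WT and 46.1%, 50.7% and 57.4% in Fhl2 KO. The share of Jun was 33.5%, 32.3%, 34.5% and 36.3% in WT and 32.9%, 23.2% and 19% in Fhl2 KO. KO 1 lay within the WT range for the share of Jun and just above it for that of Junb. KO 2 and KO 3 lay further from WT, outside its range for both. The share of Jund was 19.6% to 22.3% in WT and 21% to 26.1% in Fhl2 KO.

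In the FOS group the sum was 543, 614, 501 and 672 CPM per kb in WT and 511, 470.4 and 415 CPM per kb in Fhl2 KO. Fos made up most of it in every library, 71.4% ± 2.43 in WT and 69.4% ± 3.94 in Fhl2 KO. The share of Fosl1 stayed very small, at 0.0761% ± 0.0283 and 0.296% ± 0.0736. The Fosl2 share was 11.4% ± 1.2 in WT and 14.1% ± 0.844 in Fhl2 KO. The ratio of the FOS sum to the JUN sum was 1.81, 1.96, 1.75 and 1.97 in WT 1 to WT 4 and 1.46, 1.07 and 0.919 in Fhl2 KO. All Fhl2 KO libraries were below all WT libraries in this ratio of RNA levels, which was given no test because it is a score over chosen genes. Corrected for length and GC, the ratio was 1.82 ± 0.118 in WT and 1.2 ± 0.212 in Fhl2 KO.

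**Figure D3:**
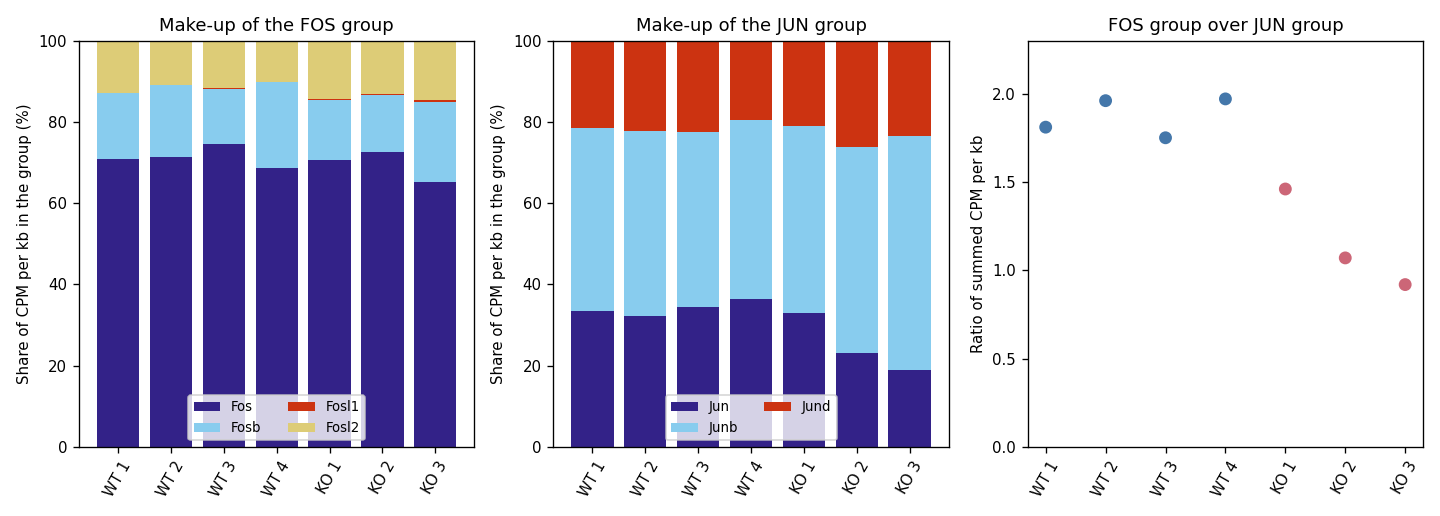
Share of each gene in the summed CPM per kb of the FOS group (left) and of the JUN group (middle), in percent, and the ratio of the FOS sum to the JUN sum (right), for each of the 7 libraries. Junb takes 57.4% of the JUN group in KO 3 against 43.1% to 45.5% in WT, and the ratio is 1.75 to 1.97 in WT and 0.919 to 1.46 in Fhl2 KO.

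The factors also varied among the untreated WT libraries. Over the 7269 genes of at least 20 CPM in WT, the median coefficient of variation was 5.9% and the 90th percentile 10.9%. Of the 9 factors at that level, 5 were above this percentile: Fosb at 31.1%, Egr2 at 26.3%, Atf3 at 21%, Egr1 at 11.9% and Jun at 11.2%. Jund, at 3.63%, was the steadiest of the 9. WT 4 was the highest WT library for 8 of the 10 factors and WT 3 the lowest for 9. From WT 3 to WT 4 the log2 difference was 1.06 for Fosb, 0.97 for Egr2, 0.68 for Atf3 and 0.41 for Egr1, down to 0.06 for Jund, and all 10 were higher in WT 4, beside a median of -0.01 over the genes of at least 20 CPM. In Fhl2 KO, KO 1 was the highest of its group for 5 of the 10 and KO 3 the lowest for 5. The 10 factors took 0.401% to 0.535% of all counts in WT and 0.417% to 0.505% in Fhl2 KO.

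Likeness to Fos and to Egr1 was measured as the mean absolute difference in log2 CPM, centred on the WT mean, over the 7 libraries and among 9834 genes of at least 5 CPM. The genes nearest to Fos were Abhd6 (0.0546), Tubgcp4 (0.0696), Wipf1 (0.0703), Ing2 (0.0746) and Nepro (0.0749). Nearest to Egr1 were Irs2 (0.0555), Rab7b (0.0581), Cox15 (0.0654), Cmtr2 (0.0663) and Pnmal2 (0.0682). Jun was at place 13 for Egr1, at 0.0753, and Fosl2 at place 58, at 0.0943. The other factors ranked were further from Egr1. Fos was at place 821, Fosb at 6764, Egr2 at 6984, Junb at 8819, Jund at 8897 and Atf3 at 9306. For Fos, the places were 520 for Egr1, 1555 for Jun, 3345 for Fosl2, 5074 for Fosb and 8995 for Egr2. Jund, Junb and Atf3 were at places 9412, 9449 and 9621 for Fos. Fos and Egr1 were at 0.137 from each other. The points share libraries and depth, so likeness is a description.

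Related genes were taken from 6 lists of gene names, chosen with earlier results of these data known. Their counts stand beside all genes tested, of which 29.0% were called in edgeR (13.5% higher, 15.6% lower). The share was 22.5% after the correction (11.7% higher, 10.8% lower), 31.8% in DESeq2 and 10.2% without KO 3. Of 22 other immediate early genes, all tested, 7 rose, 3 fell and 12 did not pass (45.5% called, median log2 fold change 0.21). Klf2, a Krüppel-like factor, was at 13.5 ± 0.915 CPM in WT and 26.1 ± 4.95 CPM in Fhl2 KO (log2 0.95, SE 0.121, edgeR adjusted p = 5.36e-05). The other leading risers were Klf10 (0.83), Csrnp1 (0.78), a nuclear protein gene induced by AXIN1, and Rhob (0.63), a small GTPase gene. With KO 1 alone Klf10 was at 0.37, Csrnp1 at 0.56 and Rhob at 0.33. EGR family genes outside the 10 did not pass in edgeR: Egr3 had a log2 fold change of 0.45 (adjusted p = 0.359) and Egr4 of 0.18 (adjusted p = 0.763). Without WT 4, its highest WT library, Egr3 was at 0.80 (edgeR adjusted p = 0.00276), and without WT 3 Egr4 was at -0.10. Those that fell were Ier5, Nr4a2 and Gem. Without KO 3 none of these 3 passed in edgeR (adjusted p = 0.0612, 0.1 and 0.131), and the Gem call was also lost without WT 2, WT 4 or KO 1 (adjusted p = 0.0639 to 0.0837). With the correction 5 rose and 4 fell, and with KO 1 alone 2 passed.

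Of 13 other AP-1 related bZIP genes tested, of 15 listed, 1 rose and 2 fell (median -0.14). Calls made up 23.1% of them, beside 29.0% of all genes tested. Maff, a small MAF gene that lacks an activation domain, rose from 51.7 ± 4.93 to 87.7 ± 14.3 CPM (log2 0.76, SE 0.11, edgeR adjusted p = 0.000186; corrected 0.59). Maf (-0.41, edgeR adjusted p = 0.0216) and Atf7 (-0.34, adjusted p = 0.0405) fell, but not after the correction (adjusted p = 0.678 and 0.0653). The Maf call was lost without WT 1, WT 3, WT 4, KO 1 or KO 3 (edgeR adjusted p = 0.0567 to 0.125), and the Atf7 call without any library but KO 1 (adjusted p = 0.0532 to 0.204). The upstream list of SRF, its ETS partners and the MAP kinases had 18 genes, of which 4 fell and 0 rose in edgeR (22.2% called, beside 29.0%). At an unadjusted p under 0.05, 2 of these 18 were higher and 5 lower, and DESeq2 called 7. The 4 that fell were Elk3 (-0.35, edgeR adjusted p = 0.0137) and Elk4 (-0.31, adjusted p = 0.0207), which encode SRF partners, Mrtfa (-0.37, adjusted p = 0.0449), an SRF coactivator gene, and the kinase gene Braf (-0.31, adjusted p = 0.0355). Without KO 3 none of these 4 passed in edgeR (Elk3 -0.28, adjusted p = 0.091), and 2 of the 18 had an unadjusted p under 0.05. Elk4 was also lost without WT 1, WT 4 or KO 2 (edgeR adjusted p = 0.0673 to 0.0752), and Mrtfa and Braf without any library but KO 1 (adjusted p = 0.0631 to 0.213). After the correction Elk3 was at -0.37 (adjusted p = 0.00317) and Braf at 0.18 (adjusted p = 0.0876). Srf itself had a log2 fold change of 0.28 (edgeR adjusted p = 0.052). It passed in 11 of the 18 alternatives, with adjusted p = 0.0212 to 0.0484 in these, among them DESeq2 (0.0385), library totals (0.0268) and the fits without WT 2, WT 4 or KO 2.

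Among 7 genes for cofactors that bind EGR or AP-1 proteins, 2 rose and 4 fell (median -0.36). Calls made up 85.7% of them, beside 29.0% of all genes tested, but 28.6% after the correction, beside 22.5%. Nab2 (0.30, edgeR adjusted p = 0.0214) rose and Nab1 (-0.36, adjusted p = 0.0205) fell; they encode corepressors that bind EGR proteins. After the correction both missed the threshold (adjusted p = 0.0675 and 0.0543). Nab2 was also lost without WT 1, WT 3, KO 2 or KO 3 (adjusted p = 0.0554 to 0.0823), and Nab1 without WT 3, WT 4 or KO 3 (adjusted p = 0.0505 to 0.138). The acetyltransferase genes Crebbp (-0.57, edgeR adjusted p = 0.00461) and Ep300 (-0.74, adjusted p = 0.0354) and the coactivator gene Ncoa1 (-0.47, adjusted p = 0.0107) were among those that fell. After the correction 2 of the 7 passed, and Crebbp was at -0.15 (adjusted p = 0.128), Ep300 at -0.31 (adjusted p = 0.0179) and Ncoa1 at -0.10 (adjusted p = 0.487). Without KO 3, 1 of the 7 passed, and Ncoa1 was at -0.45 (edgeR adjusted p = 0.0659). The Ep300 call was lost without KO 3 or any WT library (adjusted p = 0.0562 to 0.131). Of 15 textbook AP-1 and EGR target genes tested, of 20 listed, 5 rose, 1 fell and 9 did not pass (40% called, beside 29.0%, median 0.08). After the correction 3 rose and 2 fell. Plau, which encodes urokinase, was at 331 ± 30.8 CPM in WT and 776 ± 86 CPM in Fhl2 KO (log2 1.23, SE 0.101, edgeR adjusted p = 4.85e-07; corrected 1.26). Hmox1, the haem oxygenase gene, was at 60.6 ± 1.39 and 97.9 ± 9.52 CPM (log2 0.69, SE 0.0894, edgeR adjusted p = 6.37e-05). Timp1, which encodes a metalloproteinase inhibitor, was at 0.41 (edgeR adjusted p = 0.00902), but at 0.15 corrected (adjusted p = 0.132) and 0.31 without KO 3 (adjusted p = 0.0821). F3, the tissue factor gene, was at 0.51 (adjusted p = 0.00939), and at 0.52 without KO 3 (adjusted p = 0.0502).

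The dissociation and heat shock list is given because isolating cells can raise immediate early genes. Of its 14 genes, 2 rose, 2 fell and 10 did not pass in edgeR (median 0.11), while DESeq2 called 4 higher and 2 lower. The edgeR calls made up 28.6% of the list, beside 29.0% of all genes tested. The largest differences in the list did not pass in edgeR. Nfkbia, which encodes an inhibitor of NF-kappaB, was at 19.8, 19.5, 17.9 and 21.8 CPM in WT and at 20.4, 72.6 and 97.5 CPM in KO 1 to KO 3 (log2 1.69, edgeR adjusted p = 0.0663; DESeq2 adjusted p = 0.00622). Nfkbiz, which encodes a related protein, was at 8.29, 9.76, 9.62 and 8.54 CPM in WT and at 8.46, 18.5 and 22.8 CPM in Fhl2 KO (log2 0.88, edgeR adjusted p = 0.0656; DESeq2 adjusted p = 0.0377). For both, KO 1 lay within the WT range while KO 2 and KO 3 were far above it, and without KO 1 both passed in edgeR (log2 2.12 with adjusted p = 1.47e-09, and 1.21 with adjusted p = 9.9e-07). Among the factors that passed, Fos, Junb, Jund and Atf3 were also nearest to WT in KO 1. In uncorrected CPM they lay outside the WT range there, unlike Nfkbia and Nfkbiz. Fosl1 was nearest to WT in KO 2. Hsph1, a heat shock protein gene, fell (-0.52, edgeR adjusted p = 0.00236). Hspa1b also fell (-0.48, edgeR adjusted p = 0.0492), a call lost without WT 1, WT 2, WT 3, KO 2 or KO 3 (adjusted p = 0.0669 to 0.192). The calls of Hspb1 (0.36, edgeR adjusted p = 0.0129) and Gadd45b (0.34, adjusted p = 0.027) were lost with the correction (adjusted p = 0.685 and 0.805) and without KO 3 (adjusted p = 0.0502 and 0.175) or KO 2 (adjusted p = 0.0697 and 0.0708). Gadd45b was also lost without WT 1 (adjusted p = 0.0523) or WT 3 (adjusted p = 0.0921). The part of cell isolation in the values of the 10 factors was not tested.

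**Figure D4:**
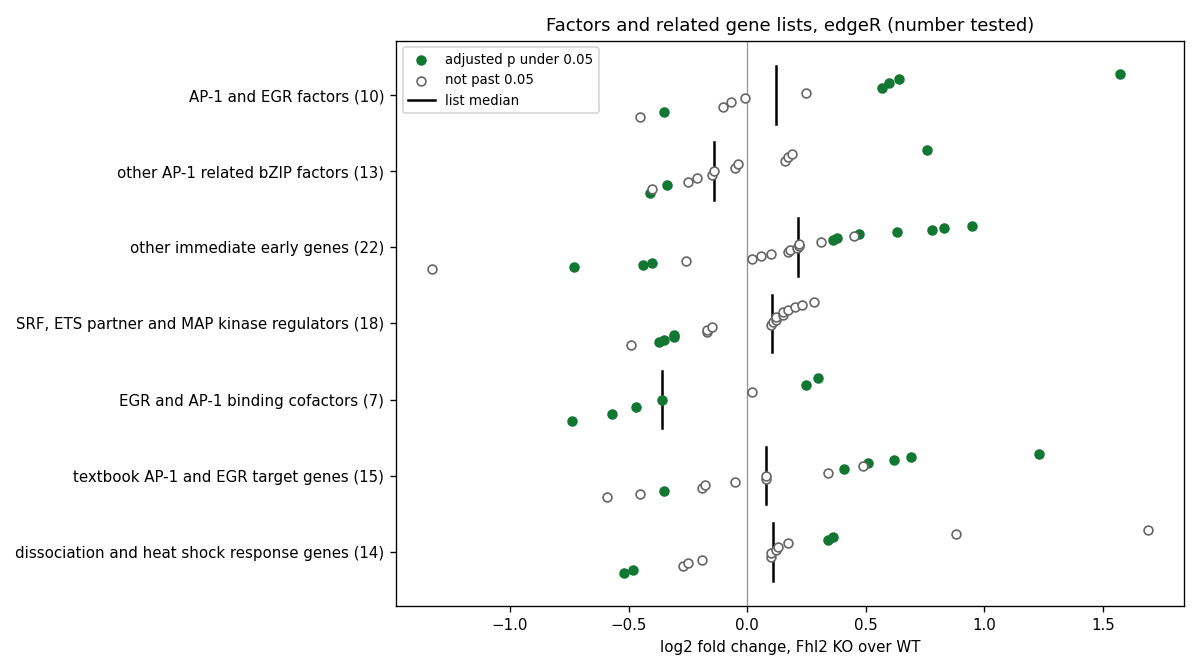
Log2 fold change, Fhl2 KO over WT, of every tested gene of the 10 factors and of the 6 related lists, with the number tested in brackets; filled points passed an adjusted p of 0.05 in edgeR and black lines are list medians. Points lie on both sides of 0 in each list, and the medians run from -0.36 for the cofactors to 0.21 for the other immediate early genes.

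The 12 markers of granulosa cells summed to 4969 to 5575 CPM in WT and 4316 to 5164 CPM in Fhl2 KO. Most of this sum came from Inhba (means of 3096 CPM in WT and 2027 CPM in Fhl2 KO) and Inha (1042 and 1699 CPM). Amh (1.87 and 0.899 CPM) and Fshr (5.4 and 7.52 CPM) were low, and Cyp19a1 was at 0 in all WT libraries. Of the 11 tested, 3 rose and 5 fell. The marker counts here stand beside 29.0% of all genes called in edgeR, 13.5% higher and 15.6% lower. Among markers of other cell types, the stroma, smooth muscle, surface epithelium, theca and lung sums did not overlap between the groups. The immune, endothelial, oocyte and red blood cell sums overlapped. The 6 stroma and fibroblast markers summed to 364 to 421 CPM in WT and 118 to 163 CPM in Fhl2 KO, with 4 of 6 lower. The smooth muscle and pericyte markers summed to 875 to 969 CPM and 462 to 538 CPM, with 4 of 5 tested lower and Rgs5 at 0 throughout. Acta2 made up most of that sum, with means of 882 CPM in WT and 491 CPM in Fhl2 KO. Des did not pass (log2 -0.04, edgeR adjusted p = 0.938). The 7 surface epithelium markers summed to 109.7 to 126 CPM and 139 to 182 CPM, with 4 of 7 higher. Immune markers were at 23.3 to 25.1 and 22.4 to 26.9 CPM, with Cd3e at 0 throughout and 0 of 7 called in edgeR, at an unadjusted p under 0.05 or in DESeq2. Of the 3 theca markers, Cyp17a1 and Insl3 were at or near 0, at most 0.0659 and 0.0458 CPM in any library. Ptch1 alone made up their sum, at 44 to 48.2 CPM in WT and 29.5 to 34.9 CPM in Fhl2 KO (log2 -0.54, edgeR adjusted p = 0.000896; corrected -0.11, adjusted p = 0.328). Endothelial markers summed to 1.65 to 2.57 and 1.47 to 2.47 CPM, oocyte markers to 2.91 to 8.26 and 4.09 to 10.4 CPM, and red blood cell markers to 0.103 to 0.299 and 0.264 to 0.533 CPM. Lung transcripts summed to 0.0214 to 0.155 CPM in WT and 0.791 to 22.3 CPM in Fhl2 KO. The part of these cells in the values of the 10 factors was not tested.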

How the data were processed

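Granulosa cell RNA of 4 WT and 3 Fhl2 KO libraries was sequenced after a stranded mRNA library preparation, per the labels' protocols. The deposited values were counts, whole-number reads per gene symbol, not normalized by the authors. Build mm10 and the tools HISAT2 2.2.1, featureCounts 1.6.4, DESeq2 1.28.1, Cufflinks 2.2.1, SAMtools and fastp are listed, with no role, per the submitters' processing notes. Annotation release and strand setting were not given in the sources used here. Of 55228 rows, 25188 had 0 counts in all libraries. Floors of 3 counts cover counting error only.

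The test was edgeR 4.0.16's quasi-likelihood test under R 4.3.3 (filterByExpr at a minimum count of 10, TMM, robust glmQLFit, glmQLFTest). Genotype was its sole term. Adjustment was by Benjamini-Hochberg over 15798 genes, with a threshold of 0.05. The procedure was tested on simulated data. SE values are on the log2 scale, and levels are TMM-scaled CPM, as mean ± SD. The length and GC correction was a per-library smooth trend (spline with 4 degrees of freedom) used as an offset for 15574 genes. Coordinates and lengths came from GENCODE M21 (mm10), in which 96.8% of rows had a unique symbol. In all, 18 alternatives were run, among them DESeq2 1.42.0 and limma 3.58.1 voom. No library was a duplicate of another of its group (chi-square over its degrees of freedom at least 10.4). The 10 factors, the lists and the markers were chosen with earlier results of these data known. Named were the 10 factors, the Fhl family, up to 4 called genes of smallest p per list, the 5 genes nearest to Fos and to Egr1, and markers; Ep300, Srf, Egr3, Egr4, Ier5, Nr4a2, Gem, Nfkbia and Nfkbiz are named beyond that rule where a count, an EGR relative or a large difference called for it, after their values were seen.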

Additional observations from a re-analysis of the deposited data

Results flagged for a closer look

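In the WT group, the library values of 46 named genes were screened for a sample whose gap to the nearest other, as a share of the group's range, exceeded Dixon's 95% critical value. This screen marks about 5% of groups of 4 by chance, and it marked 4 genes. Jun was at 395 CPM in WT 4, against 315 to 322 CPM in the others. Klf10 was at 25.1 CPM in WT 4, against 20.4 to 20.9 CPM. F3 was at 136 CPM in WT 4, against 91 to 93.5 CPM. Hspb1 was at 28.6 CPM in WT 2, against 27 to 27.1 CPM.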

How the results depend on the processing

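Of the 5 factors that passed, Fosl1 passed in all 17 alternatives that tested it, Junb, Jund and Atf3 in all but KO 1 alone, and Fos in 12 of 18. Fits with a lone library assume that it varies like WT. The number of factors called was 4 to 6 when libraries were left out in turn and 1 with KO 1 alone. All genes called numbered 1657 (without KO 3) to 6740 when libraries were left out, 781 with KO 1 alone and 2960 in libraries 1 to 3 of each group.

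With libraries left out in turn, calls ranged from 1 to 4 for other bZIP genes, 5 to 11 for other immediate early genes, 0 to 11 for the SRF and MAP kinase list, 1 to 6 for cofactors, 4 to 7 for targets and 1 to 7 for dissociation genes. KO 1 alone gave 2 other immediate early genes and, in edgeR, 0 of the SRF list, 0 cofactors and 0 dissociation genes (2, 3 and 1 at an unadjusted p under 0.05). Libraries 1 to 3 gave 1 bZIP, 2 SRF list and 3 cofactor calls. The SRF list had 7 calls in DESeq2, 11 in limma voom and 7 at a minimum of 10 CPM; voom called 5 bZIP genes. The length and GC correction left 2 cofactors.

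The replicate block, on libraries 1 to 3, gave 3301 genes and 5 factors; Egr2 was added (0.41, edgeR adjusted p = 0.0224) and Fos lost (adjusted p = 0.0887). Same-numbered libraries had r of -0.0324 to 0.0326 between their deviations from the group means, and other pairs -0.085 to 0.0994. Whether the numbers pair the samples is not stated in the labels. This r cannot settle it, because it also carries library differences such as the length slope.

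Among the named genes, signs turned for changes that had not passed in the reported test, and for Braf. Fosl2 was at 0.03 with library totals, 0.00 at 10 CPM, 0.00 with and without the block, -0.08 to 0.04 with libraries left out, 0.16 with KO 1 alone and 0.32 corrected. Jun was at 0.00 with the block, 0.01 without it, -0.16 to 0.03 with libraries left out, and 0.12 with KO 1 alone. Egr1 was at 0.16, Fhl4 at -0.51 and Nfkbiz at -0.10 with KO 1 alone, Fhl3 at -0.14 to 0.03 and Egr4 at -0.10 to 0.47 with libraries left out, and Braf at 0.18 corrected. The causes were not tested. Fosl1, with as few as 14 reads in a library, is the factor whose precision depth limits most.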
